A study of Homo sapiens with 12 samples.

Results

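The 10 genes examined here encode autophagy receptors and core proteins of the autophagy pathway: ULK1, BECN1, ATG5, ATG7, MAP1LC3B, GABARAP, GABARAPL1, GABARAPL2, SQSTM1 and NBR1. They were taken by symbol from a table of 28278 genes, and all 10 were among the 15916 genes that passed the filter on low counts. RNA was sequenced from WA26, a human embryonic stem cell (hESC) line, in 4 groups of 2 libraries each. The groups were wild-type (WT) cells at normal O2 without treatment, UBQLN1 knockout (KO) cells at normal O2 without treatment, KO cells grown in 5% O2, and KO cells given the antioxidant N-acetylcysteine (NAC) at an oxygen level the labels do not state. UBQLN1 was deleted by CRISPR-Cas9 in clones of this line, and the labels do not say which clone gave which library. The labels name no vehicle for NAC, so the untreated KO cells are the control for both treatments, and both treatment comparisons share them. The study describes DMSO as the negative control of the treatments and does not give a single length of treatment throughout, and the labels give neither vehicle nor length. An effect of a vehicle or of the length of treatment therefore cannot be told apart from that of NAC or of 5% O2. The comparisons ask how the mRNA of the autophagy machinery differed with loss of UBQLN1, a ubiquitin-binding shuttle protein, and with both treatments of KO cells.

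Autophagy encloses cytoplasm, protein aggregates or organelles in a double membrane, the autophagosome, which then fuses with lysosomes. ULK1 starts the process, the BECN1 complex makes the lipid signal on the growing membrane, and ATG7 and ATG5 act in the ubiquitin-like reactions that attach ATG8 proteins (LC3 and the GABARAP family) to that membrane. Receptors such as SQSTM1 (p62) and NBR1 bind ubiquitinated cargo and ATG8 proteins together, and they are themselves degraded with the cargo. The mRNA level of these genes is therefore not a measure of autophagic activity.

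The libraries held 31236968 to 41639350 counts. UBQLN1, the deleted gene, was at 7382 and 7591 counts in WT and at 1476 to 2392 counts in the 6 KO libraries. The summed level of 6 hESC markers was 4716 to 5217 CPM (counts scaled to a common library size) in the 6 libraries without NAC and 4180.0 and 3744 CPM with NAC. Of these markers, DNMT3B was at 1136 and 1418 CPM with NAC and at 2180 to 2617 CPM in the other libraries. NANOG was also below all others with NAC, at 131.6 and 116.8 CPM. LIN28A (1878 and 1189 CPM), TDGF1, POU5F1 and SOX2 were not below all others in both NAC libraries. KO NAC replicate 1 stood apart. It held 1809 counts of DCN, 148 of LUM and 1114 of COL3A1, which mark fibroblasts and mesenchyme, whereas DCN and LUM were at 0 in the other 7 libraries and COL3A1 was at 0 in 6 of them and at 8 counts in WT replicate 2. The summed level of 8 such markers was 936.1 CPM in that library and 511.6 to 627.1 CPM in the others, of which COL1A1, COL1A2 and THY1 made up most. The part of these transcripts in the values with NAC was not tested, and values with NAC are also given without this library where it changed a call.

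The ATG8 genes are short and alike, which matters for how reads were assigned to them. The last 60 coding bases of their GENCODE canonical transcripts are shown because the conserved glycine near the end of the protein, which ATG7 and its partners join to the membrane lipid, is encoded there. Its codon is in capitals. MAP1LC3B2, a close copy of MAP1LC3B on another chromosome, is included for comparison.
MAP1LC3B: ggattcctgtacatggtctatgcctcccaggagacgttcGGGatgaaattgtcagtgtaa
MAP1LC3B2: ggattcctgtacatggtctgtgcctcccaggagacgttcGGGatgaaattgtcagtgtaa
GABARAP: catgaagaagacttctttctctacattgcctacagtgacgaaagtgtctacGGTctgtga
GABARAPL1: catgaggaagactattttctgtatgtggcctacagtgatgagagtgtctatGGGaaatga
GABARAPL2: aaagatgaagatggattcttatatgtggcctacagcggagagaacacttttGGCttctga

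The glycine was codon 120 of 125 in MAP1LC3B, so 5 codons follow it, and codon 116 of 117 in the 3 GABARAP genes, so 1 codon follows it. Across the coding sequence, MAP1LC3B and MAP1LC3B2 were identical at 99.5% of aligned positions, GABARAP and GABARAPL1 at 76.8%, and GABARAP and GABARAPL2 at 62.4%. Of the 31-base words of the whole transcript, 29.7% of those of MAP1LC3B, 12.2% of those of GABARAPL1 and 11.5% of those of GABARAP also stand elsewhere on the chromosomes of hg38, against 0.53% for GABARAPL2, 0.07% for NBR1 and 0 for the other 5 genes. Reads that match several places are left out of the counts by default, so the levels of the first 3 genes are uncertain. The exons of SQSTM1 overlap MRNIP over 610 bases, those of BECN1 overlap CNTD1 over 795 bases and those of ATG7 overlap VGLL4 over 1597 bases, all on the opposite strand. The counting ignored strand, so reads in these stretches cannot be assigned to 1 gene, and the exons of GABARAP overlap 900 bases of unnamed transcripts.

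All 10 genes were expressed in every library. Compared per kilobase of transcript, GABARAP had the highest mean level over the 8 libraries, 94.5 CPM per kb. SQSTM1 at 50.1, GABARAPL2 at 49.1, MAP1LC3B at 45.3 and GABARAPL1 at 44.8 CPM per kb lay close together. ULK1 at 19.2, ATG5 at 18.1 and NBR1 at 17.3 CPM per kb formed the next step, followed by BECN1 at 10.6 and ATG7 at 4.56 CPM per kb. The order within these clusters depended on the group. In KO cells at normal O2, ULK1 was at 26.6 ± 0.594 CPM per kb and ATG5 at 13.1 ± 0.117 CPM per kb (SD, n = 2), whereas with NAC ULK1 was at 11.7 ± 0.395 and ATG5 at 26.5 ± 1.03 CPM per kb. By the library scaling used here (TMM), the messengers of the kinase and of the conjugation protein thus stood in opposite order in these groups. With a trend on transcript length and GC content removed, as described below, the NAC differences were smaller. The log2 fold change was -0.37 in place of -1.18 for ULK1 and 0.45 in place of 1.02 for ATG5. Whether the order still changes by that scaling was not tested. The levels per kilobase use the canonical transcript, since the isoforms expressed were not measured.

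**Figure D1:**
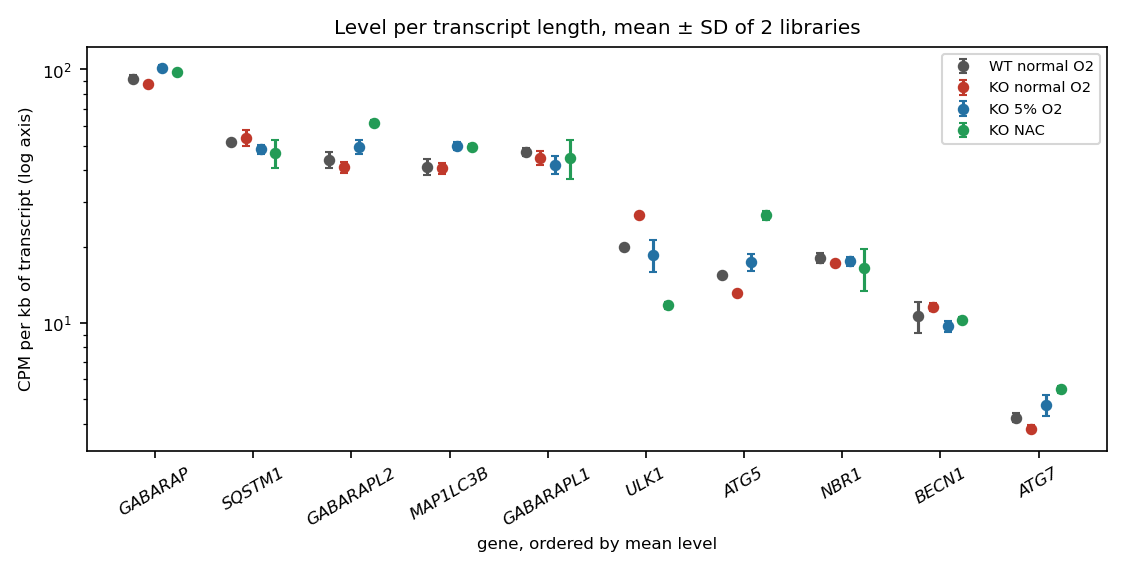
Level of each of the 10 autophagy genes in CPM per kilobase of canonical transcript on a log axis, with a point for the mean and a bar for the SD of the 2 libraries of each group. GABARAP is highest in every group at 87.5 to 101.0 CPM per kb and ATG7 is lowest at 3.83 to 5.47 CPM per kb. By TMM scaling, ULK1 and ATG5 change places between KO cells at normal O2 and KO cells with NAC.

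Loss of UBQLN1 alone went with small differences in these messengers, and NAC with the largest. Between KO and WT at normal O2, edgeR's quasi-likelihood test called none of the 10 genes at a Benjamini-Hochberg adjusted p under 0.05, whereas it called 1.96% of all tested genes. At an unadjusted p under 0.05 there were 2 genes, ULK1 and ATG5, against 17.6% of all tested genes, and DESeq2 called 1, ULK1, among 860 genes in all. In KO cells at 5% O2, ATG5 rose and ULK1 fell, which are 2 of 10 genes against 7.81% of all tested genes (3.68% higher and 4.13% lower). With NAC, ATG5, GABARAPL2, ATG7 and MAP1LC3B rose and ULK1 fell, which are 5 of 10 genes against 44.6% of all tested genes (23.8% higher and 20.8% lower), so the share of called genes was near the background. Without KO NAC replicate 1, the log2 fold changes were 1.05 for ATG5, 0.55 for GABARAPL2, 0.54 for ATG7 and 0.25 for MAP1LC3B. They were -1.15 for ULK1 and -0.28 for NBR1. These libraries are of bulk cells, in which fewer cells of a type and less RNA per cell cannot be told apart.

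The median log2 fold change of the 10 genes was -0.07 between KO and WT, 0.12 at 5% O2 and 0.08 with NAC. Over all tested genes the medians were -0.00, -0.00 and 0.02. With the length and GC trend removed, as described below, the medians of the 10 genes were 0.02, 0.02 and -0.13. Those over all tested genes were then -0.00, 0.02 and 0.03. The libraries of both groups did not overlap for 5 of the 10 genes between KO and WT, against 54.7% of all tested genes. The same counts were 8 of 10 at 5% O2 against 60.9%, and 8 of 10 with NAC against 70.2%. With 2 libraries per group, separation of this kind was common among all genes. The call rule of the study is an absolute log2 fold change over 1 with an unadjusted p under 0.05. The study used it with DESeq2, whereas here it was applied to the edgeR values. By that rule 2 of the 10 genes were called with NAC, ULK1 and ATG5, against 9.02% of all tested genes. That rule called none of the 10 between KO and WT, against 2.57%, and none at 5% O2, against 2.02%. It also called none between NAC and 5% O2, against 4.42%, and none in KO at 5% O2 or with NAC against WT, where it called 3.53% and 6.20% of all tested genes.

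**Figure D2:**
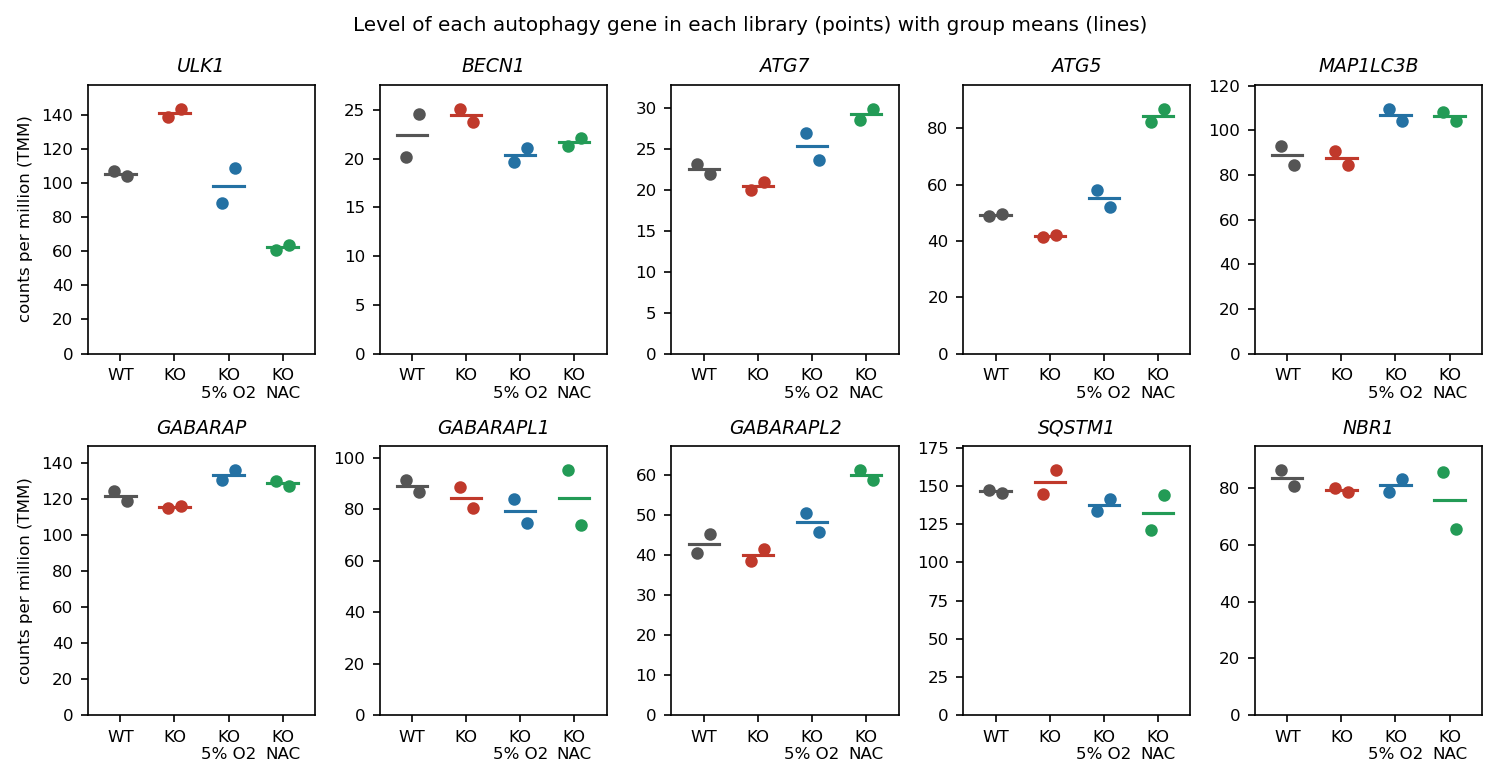
Level of each gene in CPM after TMM normalization, with a point for each library, a line for the mean of each group and each vertical axis starting at 0. ULK1 is highest in KO cells at normal O2 and lowest with NAC, ATG5 and ATG7 are lowest in KO cells at normal O2 and highest with NAC, and the group means of SQSTM1, NBR1 and GABARAPL1 span 0.15 to 0.20 on the log2 scale.

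ULK1, the kinase that starts autophagosome formation, lies on chromosome 12 from 131894622 to 131923150 on the plus strand of hg38 and has 28 exons. ULK1 was at 107.1 and 104.1 CPM in WT, at 139.2 and 143.7 CPM in KO at normal O2, at 88.4 and 108.9 CPM at 5% O2, and at 61.0 and 64.0 CPM with NAC. The KO libraries at normal O2 were above all others and the NAC libraries below all others, whereas the 5% O2 libraries overlapped those of WT. The span between the highest and lowest group means was 1.18 on the log2 scale, the widest of the 10 genes. In KO against WT, ULK1 differed by a log2 fold change of 0.42 (standard error 0.10, 95% interval 0.20 to 0.65), with an adjusted p of 0.0632 by edgeR that missed the threshold. DESeq2 called this difference (adjusted p = 0.0082), among 860 genes in all against 312 in the main fit. So did edgeR without a filter on low counts (1252 genes in all) and in a fit of the 4 libraries compared (1124). Of the 8 fits that left out a library, 2 called it, those without either NAC library. The log2 fold changes of these 8 fits ran from 0.40 to 0.45. It was not called with RLE or upper quartile normalization, at least 10 counts in every library or a replicate block. Nor was it called with the length and GC trend removed, as described below.

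With NAC, ULK1 fell by 1.18 on the log2 scale in KO cells (standard error 0.11, adjusted p = 1.77e-05), to 0.442 times its level at normal O2. It kept that call without each of the 8 libraries in turn, with log2 fold changes from -1.22 to -1.15, and the value was -1.15 without KO NAC replicate 1. At 5% O2 it fell by 0.52 (standard error 0.10, adjusted p = 0.0170). That call did not hold without KO normal O2 replicate 1 (adjusted p = 0.141), without KO normal O2 replicate 2 (adjusted p = 0.138) or without KO 5% O2 replicate 1 (adjusted p = 0.234). ULK1 was lower with NAC than at 5% O2 by 0.66 (standard error 0.10, adjusted p = 0.00128), but with the trend of each library on length and GC content removed, as described below, the difference was -0.22 (adjusted p = 0.0910).

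BECN1, the regulatory subunit of the lipid kinase complex that nucleates the membrane, was among the genes with the lowest levels. It was at 20.1 and 24.7 CPM in WT, at 25.1 and 23.8 CPM in KO, at 19.7 and 21.2 CPM at 5% O2 and at 21.3 and 22.1 CPM with NAC. WT replicate 1 and WT replicate 2 differed by more than the means of any 2 groups. KO differed from WT by a log2 fold change of 0.13 (95% interval -0.15 to 0.41). The treated KO cells differed from untreated ones by -0.26 at 5% O2 (95% interval -0.54 to 0.02) and by -0.17 with NAC (95% interval -0.45 to 0.11), and none of these differences passed the test.

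ATG5, which joins ATG12 to form part of the ligase for ATG8 proteins, lies on chromosome 6 from 106045423 to 106325791 on the minus strand and has 8 exons. It was at 48.7 and 49.4 CPM in WT, at 41.5 and 42.0 CPM in KO, at 58.2 and 52.2 CPM at 5% O2 and at 82.2 and 86.9 CPM with NAC. By TMM scaling, the order from KO through WT and 5% O2 to NAC held with no overlap between neighbouring groups. The share of all tested genes whose 4 groups were all separate was not computed, here or for ATG7 and GABARAP below. In KO against WT the log2 fold change was -0.23 (standard error 0.09, 95% interval -0.44 to -0.02), with an unadjusted p of 0.0315 and an adjusted p of 0.232. With NAC, ATG5 rose by 1.02 (standard error 0.09, adjusted p = 1.92e-05), a 2.02-fold increase that held without each library in turn, at log2 fold changes from 0.98 to 1.05. At 5% O2 it rose by 0.40 (standard error 0.09, adjusted p = 0.0285). This call held in 3 of 8 fits that left out a library, and without KO 5% O2 replicate 1 the log2 fold change was 0.32 (adjusted p = 0.295). ATG5 was 0.61 higher with NAC than at 5% O2 on the log2 scale (standard error 0.09, adjusted p = 0.00103), and 0.25 higher with the length and GC trend removed (adjusted p = 0.0569), which is not called.

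ATG7, the enzyme that activates both ATG8 proteins and ATG12, showed the same order of groups at a lower level. It was at 23.2 and 21.9 CPM in WT, at 19.9 and 20.9 CPM in KO, at 26.9 and 23.6 CPM at 5% O2 and at 28.5 and 29.8 CPM with NAC, with no overlap between neighbouring groups. KO differed from WT by a log2 fold change of -0.14 (95% interval -0.40 to 0.11) and KO cells at 5% O2 from untreated ones by 0.31 (standard error 0.12, adjusted p = 0.125), neither of which passed. With NAC, ATG7 rose by 0.51 (standard error 0.12, adjusted p = 0.00352) and kept the call without each library in turn. ATG5 and ATG7, both of the conjugation machinery, were thus called higher with NAC.

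GABARAPL2 had the widest span of group means of the ATG8 genes, though its difference with NAC was the smallest of the 4 in size once the length and GC trend was removed. It was at 40.7 and 45.2 CPM in WT, at 38.6 and 41.6 CPM in KO, at 50.5 and 45.9 CPM at 5% O2 and at 61.2 and 58.9 CPM with NAC. The NAC libraries were above all others, and the KO and WT libraries at normal O2 overlapped. It rose by 0.58 with NAC (standard error 0.10, adjusted p = 0.000637), in each fit that left out a library as well, and the log2 fold change at 5% O2 was 0.27 (standard error 0.10, adjusted p = 0.128).

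MAP1LC3B encodes LC3B, the ATG8 protein most often used to mark autophagosomes. Its level was 93.1 and 84.4 CPM in WT, 90.5 and 84.4 CPM in KO, 109.6 and 104.1 CPM at 5% O2 and 108.4 and 104.4 CPM with NAC. All 4 treated libraries lay above all 4 untreated ones. MAP1LC3B rose by 0.28 with NAC (standard error 0.09, adjusted p = 0.0236), but without KO NAC replicate 1 the value was 0.25 and the adjusted p 0.0649, and it was also above the threshold without KO normal O2 replicate 1 (0.0657), without KO normal O2 replicate 2 (0.188) and in a fit of the 4 libraries compared (0.0516). At 5% O2 the log2 fold change was 0.29 (standard error 0.09, adjusted p = 0.0717), and it was called by DESeq2 (adjusted p = 0.0323), in a fit of the 4 libraries compared and without either NAC library. The log2 difference between NAC and 5% O2 was -0.01 (95% interval -0.20 to 0.19), but -0.32 with the length and GC trend removed (adjusted p = 0.0206, called lower).

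GABARAP, the most abundant of the ATG8 messengers, was at 124.2 and 118.6 CPM in WT, 114.7 and 116.0 CPM in KO, 130.6 and 135.8 CPM at 5% O2 and 130.0 and 127.2 CPM with NAC. The 4 groups did not overlap, but the differences were small and none passed the test: the log2 fold change was 0.21 at 5% O2 (95% interval 0.03 to 0.39, adjusted p = 0.141) and 0.16 with NAC (95% interval -0.02 to 0.34, adjusted p = 0.143). GABARAPL1 was at 91.3 and 86.5 CPM in WT, 88.5 and 80.4 CPM in KO, 84.1 and 74.7 CPM at 5% O2 and 95.04 and 73.9 CPM with NAC. Its highest and lowest levels were both in the NAC group, with the higher in KO NAC replicate 1, and the 95% interval of its log2 fold change with NAC ran from -0.26 to 0.27.

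The 4 ATG8 genes together summed to 227.7 and 221.6 CPM per kb in WT, 215.8 and 212.6 in KO, 246.6 and 238.3 at 5% O2, and 262.4 and 244.8 CPM per kb with NAC. All treated libraries exceeded all untreated ones, and GABARAP made up 37.6% to 43.2% of the sum in every library. No test was run on this sum. With the length and GC trend removed, the log2 fold changes of all 4 genes with NAC were below 0, at -0.22 for MAP1LC3B, -0.18 for GABARAP, -0.21 for GABARAPL1 and -0.08 for GABARAPL2, and none was called.

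SQSTM1, the receptor p62, lies on chromosome 5 from 179806398 to 179838078. It was at 147.8 and 145.7 CPM in WT, 144.6 and 160.3 CPM in KO, 133.5 and 141.6 CPM at 5% O2 and 121.1 and 144.3 CPM with NAC. WT and KO overlapped, and the log2 fold change between them was 0.06 (95% interval -0.16 to 0.28). The log2 fold change was -0.15 at 5% O2 (adjusted p = 0.395) and -0.20 with NAC (adjusted p = 0.130). The value with NAC differed between its libraries: it was -0.33 without KO NAC replicate 2 (adjusted p = 0.0145) and -0.08 without KO NAC replicate 1 (adjusted p = 0.549).

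NBR1, a second receptor for ubiquitinated cargo, was at 86.2 and 80.7 CPM in WT, 80.1 and 78.8 CPM in KO, 78.6 and 83.3 CPM at 5% O2 and 85.8 and 65.7 CPM with NAC. It had the narrowest span of group means of the 10 genes, 0.15 on the log2 scale, and the neighbouring groups overlapped throughout. The lowest level was in KO NAC replicate 2, while KO NAC replicate 1 was near WT. KO differed from WT by a log2 fold change of -0.07 (95% interval -0.33 to 0.19), and the values were 0.03 at 5% O2 and -0.07 with NAC (adjusted p = 0.682). Without KO NAC replicate 1 the value with NAC was -0.28 (adjusted p = 0.0443). For both receptors, the call with NAC thus turned on which NAC library was kept.

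**Figure D3:**
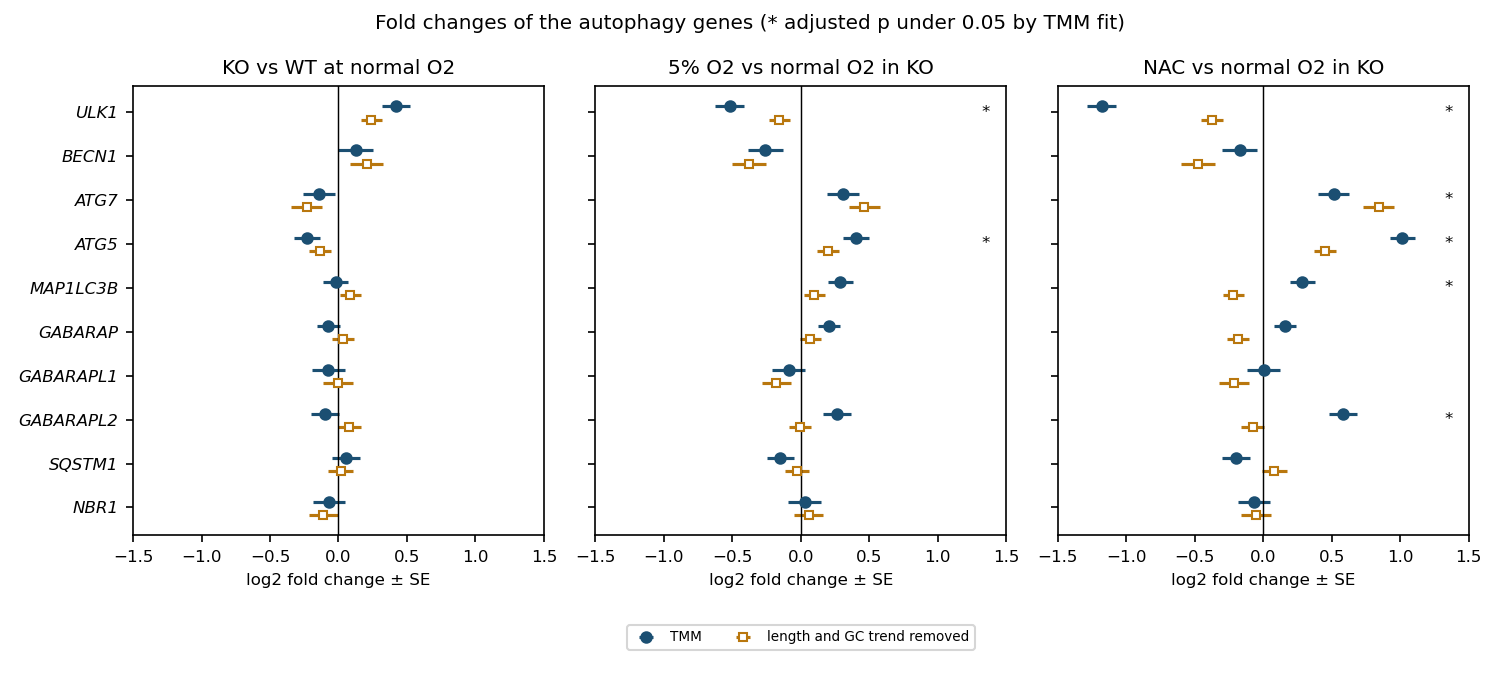
Log2 fold change with its standard error for each gene in 3 comparisons, after TMM normalization (filled circles) and after removal of each library's length and GC trend (open squares), with a star where the TMM fit gave an adjusted p under 0.05. With the trend removed, ULK1 with NAC moves from -1.18 to -0.37, ATG5 from 1.02 to 0.45 and ATG7 from 0.51 to 0.84.

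The fold changes of all genes varied with the GC content of their transcripts, and the genes that moved most here lie at opposite ends of it. The canonical transcript of ULK1 has 64.2% GC, above 94.2% of tested genes, and that of ATG5 has 38.5% GC, above 9.93% of tested genes. The other 8 genes have 42.4% to 57.1% GC. Genes are not independent replicates, and as a description over the 14828 with a known transcript, GC content had a Spearman's rho with the fold change of 0.15 in KO against WT, -0.34 at 5% O2 and -0.50 with NAC. For length the values were 0.23, -0.25 and -0.26.

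After a smooth trend on length and GC content was removed from each library, the fold changes were smaller for most of the genes called. With NAC, ULK1 was lower by a log2 fold change of -0.37 (adjusted p = 0.00613) and ATG5 was higher by 0.45 (adjusted p = 0.00285), so both kept their direction and call. ATG7 was higher by 0.84 (adjusted p = 0.000615), and BECN1 was called lower (-0.47, adjusted p = 0.0179). MAP1LC3B turned to -0.22 (adjusted p = 0.0603) and GABARAPL2 to -0.08 (adjusted p = 0.544), so the direction of these ATG8 genes with NAC rests on the scaling. By this fit 4 of 10 genes were called with NAC, ATG5 and ATG7 higher and ULK1 and BECN1 lower, against 25.3% of all tested genes.

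At 5% O2 none of the 10 genes was called by edgeR after the trend was removed, against 2.0% of all tested genes: ULK1 was at -0.16 (adjusted p = 0.333), ATG5 at 0.20 (adjusted p = 0.240) and ATG7 at 0.46 (adjusted p = 0.0637). In KO against WT this fit also called none of the 10, against 1.19% of all tested genes, with ULK1 at 0.24 (adjusted p = 0.168), ATG5 at -0.14 and SQSTM1 at 0.02. Whether the trend on GC content is technical or belongs to the treatments was not tested.

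**Figure D4:**
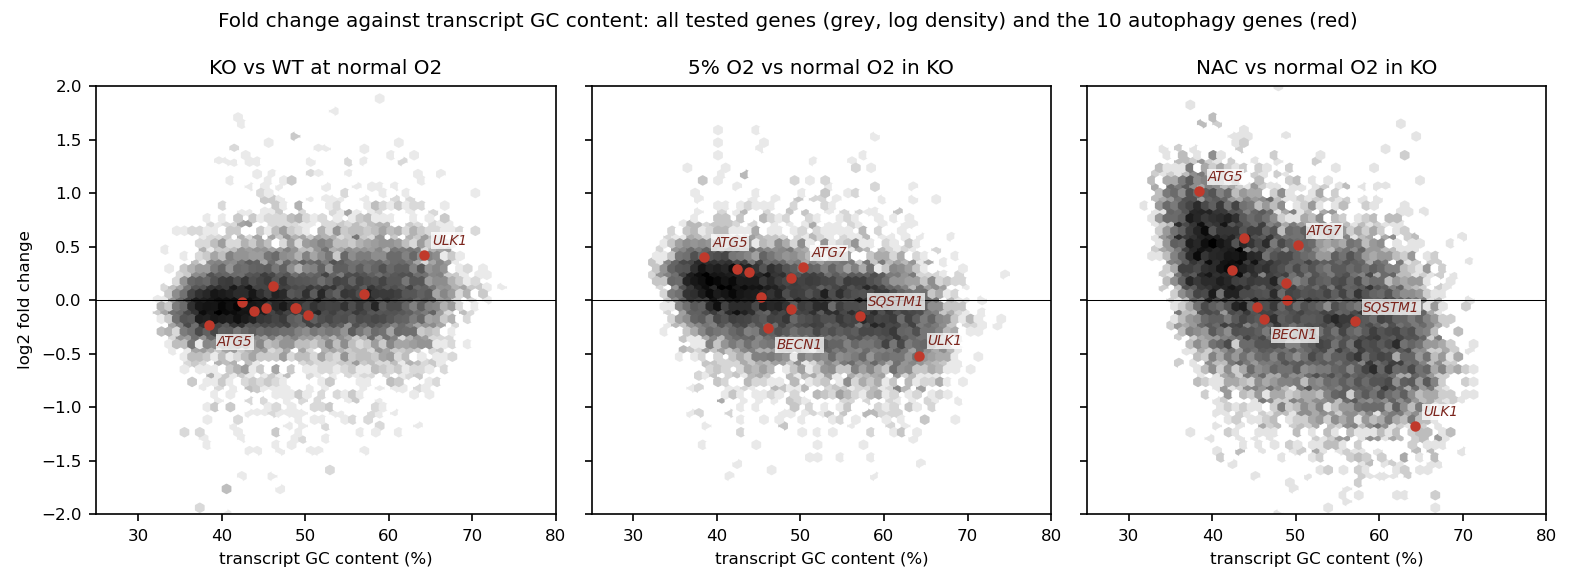
Log2 fold change of all tested genes with a known transcript (grey, darker where more genes lie, on a log scale) and of the 10 autophagy genes (red) against transcript GC content in percent, in 3 comparisons. The fold changes of all genes fall with GC content at 5% O2 and with NAC (rho of -0.34 and -0.50), and ATG5 and ULK1 lie near the low and high ends of GC content.

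The treated KO cells were also set against untreated WT, with the same WT libraries in each comparison. The groups of these comparisons differ in both genotype and treatment, whose effects cannot be told apart in them. In KO cells at 5% O2, none of the 10 genes was called by edgeR or by DESeq2, against 3.27% of all tested genes by edgeR, and 1 gene, MAP1LC3B, had an unadjusted p under 0.05, against 19.2% of all tested genes (log2 fold change 0.27, adjusted p = 0.132). ULK1 was at -0.10 (95% interval -0.33 to 0.13) and ATG5 at 0.17 (95% interval -0.04 to 0.38) relative to WT. With NAC, 5 of 10 genes were called relative to WT, against 38.2% of all tested genes. ULK1 was lower by 0.76 on the log2 scale (adjusted p = 0.000311), whereas ATG5 was higher by 0.79 (adjusted p = 0.000161), GABARAPL2 by 0.48 (adjusted p = 0.00311), ATG7 by 0.37 (adjusted p = 0.0248) and MAP1LC3B by 0.26 (adjusted p = 0.0395). Without KO NAC replicate 1, ULK1 was at -0.73, ATG5 at 0.82, GABARAPL2 at 0.45 and ATG7 at 0.40, all called, and MAP1LC3B at 0.23 was not (adjusted p = 0.0978) while NBR1 was called lower (-0.35, adjusted p = 0.0174). The call of MAP1LC3B was lost in 7 of 8 fits that left out a library and with DESeq2 (adjusted p = 0.0597). That of ATG7 was lost without WT replicate 1 (adjusted p = 0.0719), WT replicate 2 (adjusted p = 0.172) or KO NAC replicate 2 (adjusted p = 0.0540). With the length and GC trend removed 2 of 10 were called, ATG5 and ATG7, both higher, against 19.6% of all tested genes. By TMM scaling, all of the 10 genes but GABARAPL1 and NBR1 had group means on opposite sides of WT in untreated KO cells and with NAC. The share of all genes with this order was not computed, so the count cannot be read as particular to these genes. Among them, untreated KO and WT libraries overlapped for SQSTM1, MAP1LC3B, GABARAPL2 and BECN1. With the trend removed, the log2 fold changes of KO against WT were positive for MAP1LC3B (0.09), GABARAP (0.03) and GABARAPL2 (0.08). Between KO and WT at normal O2, edgeR called none of the 10. Between NAC and 5% O2, 3 of 10 genes were called, against 29.1% of all tested genes: ULK1 and ATG5, given above, and GABARAPL2, which was 0.32 higher with NAC (adjusted p = 0.0352) and lost the call in 6 of 8 fits that left out a library. Without KO NAC replicate 1 the differences were -0.63 for ULK1, 0.65 for ATG5 and 0.28 for GABARAPL2 (adjusted p = 0.0931), and NBR1 was called lower (-0.30, adjusted p = 0.0431). With the length and GC trend removed, 2 other genes were called between NAC and 5% O2, MAP1LC3B lower (-0.32) and ATG7 higher (0.38, adjusted p = 0.0427), against 15.5% of all tested genes, and ULK1, ATG5 and GABARAPL2 were not.

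The other genes of the pathway were examined in 9 lists by role, which held 79 genes, of which 78 were tested and PLEKHM1 was not. In KO against WT, 2 of these 78 genes were called, both lower, OPTN and ATG4A, beside 0.622% of all tested genes called lower. OPTN encodes optineurin, a receptor for ubiquitinated mitochondria and bacteria that works beside SQSTM1. It was at 32.1 and 30.8 CPM in WT, at 9.62 and 10.2 CPM in KO, at 10.1 and 9.22 CPM at 5% O2 and at 16.4 and 9.52 CPM with NAC. All 6 KO libraries were below both WT libraries, and the highest of them was KO NAC replicate 1. OPTN fell by 1.67 on the log2 scale in KO (standard error 0.21, adjusted p = 0.00152), at -1.66 with the length and GC trend removed, and the call held in each fit that left out a library, where the adjusted p was at most 0.0436.

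ATG4A, a protease that processes GABARAP proteins, was at 10.1 and 7.31 CPM in WT and at 3.58 and 3.84 CPM in KO at normal O2. It fell by 1.23 in KO (standard error 0.22, adjusted p = 0.0144), and the remaining KO libraries were at 3.83 to 4.49 CPM. This call did not hold without WT replicate 1 (-0.98, adjusted p = 0.145), without KO normal O2 replicate 1 (adjusted p = 0.205) or without KO normal O2 replicate 2 (adjusted p = 0.131). The median log2 fold change of the 78 genes in KO was -0.03, beside -0.00 for all tested genes.

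At 5% O2, 2 of the 78 genes rose and 5 fell, beside 7.81% of all tested genes called in either direction. PIK3C3, the lipid kinase that works with BECN1, rose by 0.43 (adjusted p = 0.0272) and NCOA4, the receptor for ferritin, by 0.38 (adjusted p = 0.0462). RUBCN, an inhibitor of the BECN1 complex, fell by 0.65 (adjusted p = 0.0312) and the lipid transfer protein ATG2A by 0.54 (adjusted p = 0.0201). WDFY3 fell by 0.42, the lysosomal transcription factor TFE3 by 0.41 and the growth kinase MTOR by 0.37. With the trend removed, PIK3C3 kept its call (0.48, adjusted p = 0.0181) and the 6 other named genes did not. The median of the 78 genes was 0.03, beside -0.00 for all tested genes.

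With NAC, 29 of the 78 genes rose and 17 fell, beside 44.6% of all tested genes called in either direction, and the median was 0.23, beside 0.02 for all. A fit without KO NAC replicate 1, which was decided with the values in view, left 1 library in the NAC group. In that fit CALCOCO2 (0.34), CCPG1 (0.47), RAB7A (0.11), VPS11 (0.25) and WIPI2 (-0.25) lost their call and ATG4B (0.34) gained one, whereas the genes named below kept theirs. With the length and GC trend removed, 18 of the 78 genes rose and 4 fell, beside 14.7% and 10.6% of all tested genes. In the initiation list, RB1CC1, the scaffold of the ULK1 complex, rose by 0.64 (adjusted p = 0.00101) and ATG13, another subunit of it, fell by 0.38 (adjusted p = 0.00462). With the trend removed RB1CC1 was at 0.38 (adjusted p = 0.0351) and ATG13 at -0.06 (adjusted p = 0.636), and the list then had 2 higher and 0 lower of 4 genes. The conjugation list had 4 higher and 1 lower of 8 genes, and 2 higher and 0 lower with the trend removed. ATG12, which is joined to ATG5, was at 33.2 and 30.7 CPM in untreated KO cells and at 67.7 and 62.5 CPM with NAC, a rise of 1.03 (standard error 0.10), and was still higher by 0.42 with the trend removed (adjusted p = 0.0075). ATG4C, a protease of ATG8 proteins, rose by 0.94 (adjusted p = 0.000336), but was at 0.11 with the trend removed (adjusted p = 0.631). The genes of both partners of the ATG12-ATG5 conjugate rose with NAC by either scaling. Of the 31-base words of ATG12, 11.5% also stand elsewhere in the genome, so its counts are uncertain.

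The list of other receptors had 5 higher and 2 lower of 10 genes with NAC, beside 23.8% and 20.8% of all tested genes, and 2 higher and 1 lower with the trend removed. TAX1BP1, a receptor related to optineurin in its role, rose by 0.67, from 88.2 and 93.4 CPM to 161.4 and 126.7 CPM, but was at 0.09 with the trend removed (adjusted p = 0.567). WDFY3, a large scaffold for aggregate clearance, fell by 0.86 and kept its call with the trend removed. MAP1LC3B2 rose by 0.84 (adjusted p = 0.00759), at 0.33 with the trend removed (adjusted p = 0.305), and 54.6% of the 31-base words of its transcript stand elsewhere in the genome, so its counts are uncertain. The lists of nucleation and lipid supply genes had 2 higher and 2 lower of 7 genes, and 2 higher and 4 lower of 9 genes. NRBF2 rose by 0.61 and RUBCN fell by 0.76 in the first, while VMP1 rose by 1.06 and ATG2A fell by 1.25 in the second. With the trend removed NRBF2 was at 0.06 (adjusted p = 0.754) and RUBCN at -0.21 (adjusted p = 0.326), neither called, while VMP1 at 0.66 and ATG2A at -0.37 kept their calls. Copies elsewhere in the genome held 53.2% of the words of NRBF2 and 15.4% of those of VMP1.

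The lysosome list had 8 higher and 1 lower of 16 genes and a median of 0.37, beside 23.8% higher, 20.8% lower and a median of 0.02 over all tested genes. LAMP2, a lysosomal membrane protein, was at 51.5 and 46.7 CPM in untreated KO cells and at 101.6 and 106.9 CPM with NAC, a rise of 1.09 (standard error 0.10). HEXA, the alpha subunit of beta-hexosaminidase, was at 32.8 and 32.3 CPM and at 60.5 and 56.2 CPM, a rise of 0.84 (standard error 0.10). With the trend removed, 7 genes of this list were higher and none lower, beside 14.7% and 10.6% of all tested genes, with a median of 0.23, and LAMP2 at 0.71 and HEXA at 1.12 were among them. The fusion list had 5 higher and 2 lower of 11 tested genes, and the 2 that fell were EPG5 (by 0.74) and VPS18 (by 0.64), both tethering factors. Neither was called with the trend removed (EPG5 at -0.24, adjusted p = 0.185, and VPS18 at -0.11, adjusted p = 0.383), when the list had 2 higher and 0 lower.

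The regulators list had 1 higher and 4 lower of 10 genes, beside 23.8% and 20.8% of all tested genes, and a median of -0.11. With the trend removed it had 1 higher and 2 lower, beside 14.7% and 10.6% of all tested genes, and a median of 0.12. MTOR, the kinase that phosphorylates and inhibits ULK1, was at 184.0 and 170.0 CPM in untreated KO cells and at 86.4 and 92.8 CPM with NAC, a fall of 0.98 (standard error 0.09). RPTOR, its partner in the nutrient-sensing complex, was at 62.0 and 63.2 CPM and at 31.4 and 29.8 CPM, a fall of 1.03 (standard error 0.11). With the trend removed MTOR was at -0.34 (adjusted p = 0.00801) and RPTOR at -0.23 (adjusted p = 0.0985). The genes of the ULK1 kinase and of the kinase that inhibits it were both lower with NAC.

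**Figure D5:**
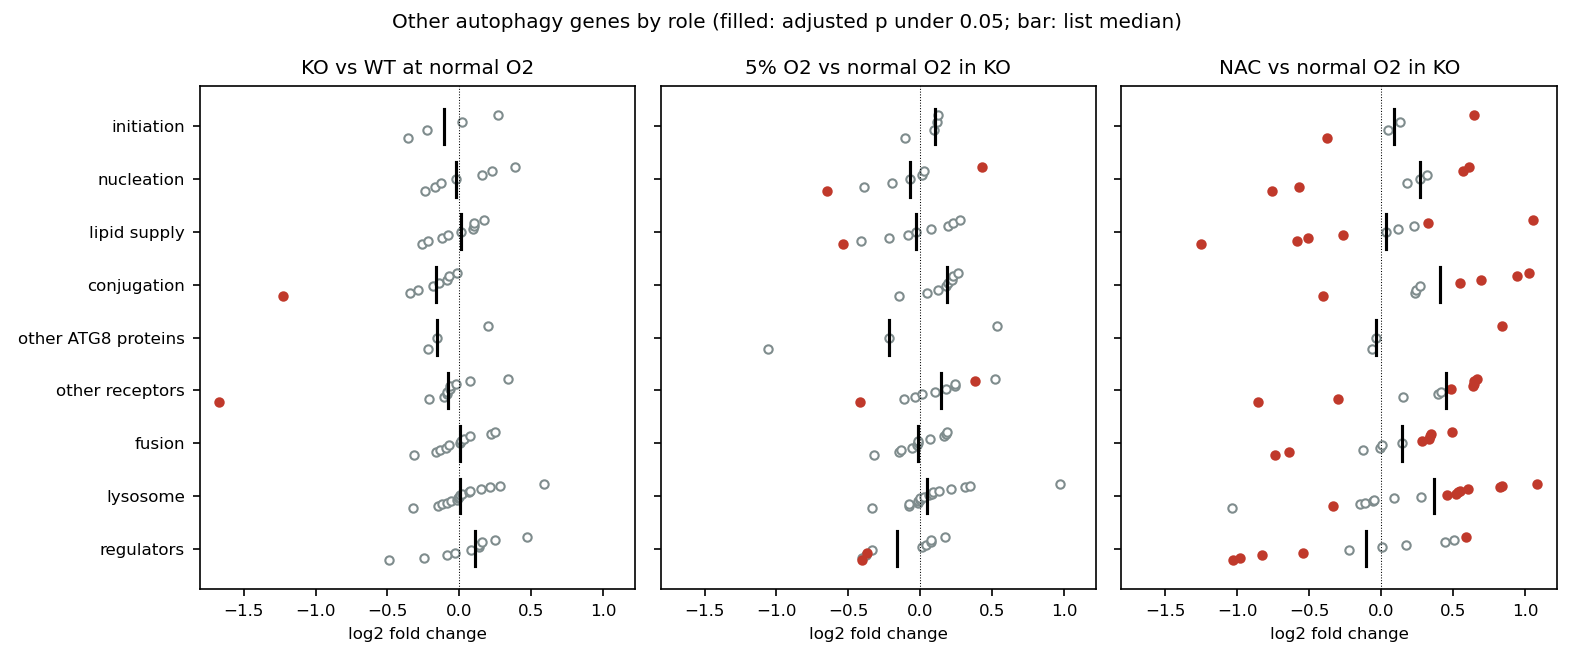
Log2 fold change of each tested gene in 9 lists of other autophagy genes by role, in 3 comparisons, filled where the adjusted p was under 0.05, with a bar for the list median. In KO against WT the filled points are OPTN at -1.67 and ATG4A at -1.23, and with NAC the lysosome list lies mostly above 0 and MTOR and RPTOR are lowest in the regulators list.

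The 3 genes whose levels over the 8 libraries were most like those of ULK1, by the root mean square difference of centred log2 CPM among 12270 genes, were SETD1A (0.041), SKI (0.043) and CHERP (0.044). SETD1A, for example, was at 76.1 and 77.7 CPM in untreated KO cells and at 32.5 and 35.4 CPM with NAC. These values are descriptions over 8 libraries, and many genes share the trends given above.

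The promoters of 3 genes are shown, ULK1 as the gene with the widest span and MAP1LC3B and GABARAPL2 as genes that hold a searched motif and were called higher with NAC, though not with the length and GC trend removed. ATG5 also holds a motif and is not shown, as its RefSeq start lies 323 bases from the GENCODE canonical start. Each stretch is the 250 bases before the RefSeq start on GRCh38.p14, plus strand, with a motif match in capitals. ULK1 is at chr12:131894372-131894621, MAP1LC3B at chr16:87392086-87392335 and GABARAPL2 at chr16:75566129-75566378.
ULK1: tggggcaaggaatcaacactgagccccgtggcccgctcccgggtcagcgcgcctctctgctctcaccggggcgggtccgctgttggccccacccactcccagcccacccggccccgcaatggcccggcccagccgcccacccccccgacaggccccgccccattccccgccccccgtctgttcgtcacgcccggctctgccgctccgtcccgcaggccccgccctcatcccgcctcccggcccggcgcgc
MAP1LC3B: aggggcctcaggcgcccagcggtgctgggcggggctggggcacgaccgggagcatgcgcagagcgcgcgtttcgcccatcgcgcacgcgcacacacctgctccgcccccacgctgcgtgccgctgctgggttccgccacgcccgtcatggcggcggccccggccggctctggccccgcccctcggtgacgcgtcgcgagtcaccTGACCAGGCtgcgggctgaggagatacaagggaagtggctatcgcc
GABARAPL2: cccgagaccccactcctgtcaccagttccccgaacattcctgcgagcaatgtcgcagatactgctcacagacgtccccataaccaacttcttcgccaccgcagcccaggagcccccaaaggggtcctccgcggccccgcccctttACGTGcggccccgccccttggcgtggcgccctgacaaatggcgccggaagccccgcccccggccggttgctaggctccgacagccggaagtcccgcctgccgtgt

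Windows of 300 bases, from 250 before to 50 after the start, were searched on both strands for 5 motifs. ACGTG is the core of the site of hypoxia-inducible factors. TGACNNNGC is the core of the antioxidant response element. TGATGNAA is a core of ATF4 sites. CACGTG is the E-box and contains the first motif. TCACGTGA is the site shared by TFEB and TFE3 and contains both the E-box and the first motif. ACGTG was present in 2 of 10 windows, those of ATG5 and GABARAPL2, and in 21.4% of 35116 promoters. TGACNNNGC was in 1 of 10, that of MAP1LC3B, and in 13.3% of promoters. The other motifs were in none of the 10 windows. They were in 3.6% (the ATF4 core), 7.3% (the E-box) and 1.0% (the TFEB and TFE3 site) of promoters. The window of ULK1 held no match and had 78.3% GC, the highest of the 10, where the median of all promoters was 58.7%. The RefSeq starts used for ATG5 and BECN1 lie 323 and 403 bases from the GENCODE canonical starts. A match here is a run of letters and not a measured site.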

How the data were processed

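RNA-seq of WA26 hESCs is described for 12 samples in the labels, of which 8 were analysed. The treated WT samples, 4 in number, were not analysed here. Whether a difference with a treatment depends on the loss of UBQLN1 was therefore not tested. Per the study's methods, trimming was with trim-galore, alignment to hg38 with hisat2 and counting with featureCounts in its default mode, and the values the authors deposited are raw counts with no normalization. Which annotation the counting used is not given in the sources used here. The default mode takes no account of strand and drops multi-mapping reads and reads shared by overlapping genes. The library kit named in the labels does not mark strand.

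After filterByExpr (minimum count 10) and TMM scaling, edgeR 4.0.16 in R 4.3.3 gave quasi-likelihood tests from a single fit of 8 libraries with a term per group, 4 residual degrees of freedom and no block. P-values were adjusted by Benjamini-Hochberg over 15916 genes, and a gene was called below 0.05. A standard error was obtained from the F statistic, as the size of the log2 fold change over the root of F. The biological coefficient of variation was 13.7%, and replicates differed by more than sampling noise (chi-square per degree of freedom 9.79 to 32.4). The labels do not say whether replicates are separate cultures or clones, so p-values measure the spread between these libraries, which may be technical. The 10 genes and the role lists were chosen with earlier results of these data known.

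All 10 genes are named. From each role list, the 2 called genes with the largest absolute log2 fold change in each of 3 comparisons are named. For the genes with the widest span of group means and the highest level per length, the 3 nearest genes with an average of at least 1 log2 CPM (prior count 2) are named, of which the result for the highest level per length is not reported here. The alternatives tried were RLE or upper quartile normalization, DESeq2 1.42.0, no filter, at least 10 counts in every library, a replicate block, a fit of only the libraries compared, the call rule of the study (absolute log2 fold change over 1 and unadjusted p under 0.05), leaving out each library in turn, and removal from each library of a smooth trend fitted to transcript GC content and length (mgcv 1.9.3). The call rule of the study, which used DESeq2, was applied here to edgeR values. Where leaving out a library left a group with a single library, that library is assumed to vary like the other groups. Lengths and GC content came from GENCODE canonical transcripts and were known for 93.2% of tested genes. Motif searches used RefSeq promoters of GRCh38.p14. The values of OPTN and ATG4A under these alternatives, and the wider list genes without KO NAC replicate 1 or with the trend removed, were added after seeing the data. All 8 columns of the table were used. The computations were tested on simulated counts, which were set to vary less between replicates than these libraries. That test checks the code and does not measure how reliable the calls are here.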

Additional observations from a re-analysis of the deposited data

How the results depend on the processing

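Of 960 alternative values of the fold changes of the 10 genes over 6 comparisons, 856 kept their direction and their side of the threshold, 41 changed sign without being called in either fit, 42 lost a call, 17 gained a call and 4 reversed. All 4 reversals came with the length and GC trend removed: MAP1LC3B to -0.22 and GABARAPL2 to -0.077 for NAC against normal O2, GABARAPL2 to -0.070 for NAC against 5% O2, and MAP1LC3B to -0.13 for KO with NAC against WT. Of the number of genes called, the value of 0 for KO against WT became 1 with DESeq2, 1 without a filter on low counts and 1 in a fit of only the libraries compared, and ranged from 0 to 1 without single libraries, with 1 (ULK1) without KO NAC replicate 1 or 2. For 5% O2 against normal O2 the number was 2, became 0 by the call rule of the study and 0 with the trend removed, and ranged from 0 to 3 without single libraries (0 without KO normal O2 replicate 1 or 2 or KO 5% O2 replicate 1, 1 without WT replicate 2 or KO 5% O2 replicate 2). For NAC against normal O2 the number was 5, became 2 by the call rule of the study and ranged from 4 to 6 without single libraries. For NAC against 5% O2 it was 3, became 0 by that rule and 2 with the trend removed (MAP1LC3B and ATG7, in place of ULK1, ATG5 and GABARAPL2), and ranged from 2 to 3. For KO with NAC against WT it was 5, became 0 by that rule, 2 with the trend removed and 3 in a fit of only the libraries compared, and ranged from 3 to 5, with 3 without WT replicate 1 or 2. For KO at 5% O2 against WT it was 0 under all alternatives. Where a number moved, the cause was not tested. Deviations of same-numbered libraries had correlations of -0.02 to 0.08 over all genes, which cannot show whether the samples were paired. With the replicate block the numbers called were 0, 2, 5, 3, 0 and 5, as without it. Calls over all genes moved from 312 to 366 in KO against WT, 1243 to 1417 at 5% O2 and 7100 to 7173 with NAC. Over all genes, the 312 calls of KO against WT became 860 with DESeq2, 1252 without a filter, 1124 in a fit of only the libraries compared and 189 with the trend removed, and without single libraries 64 to 1311 (1311 without KO NAC replicate 1). The 1243 calls at 5% O2 became 2144, 2220, 3009 and 318, and 36 to 2763 without single libraries. The 7100 calls with NAC became 4033 with the trend removed, the 4635 of NAC against 5% O2 became 2463 with it removed and 3050 in a fit of only the libraries compared, and the 6076 of KO with NAC against WT became 3119 with it removed. The 520 of KO at 5% O2 against WT became 1012 with DESeq2, 1350 without a filter and 1288 in a fit of only the libraries compared. Each group has 2 libraries, which limits the degrees of freedom of every test.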
